A study of Arabidopsis thaliana with 36 samples.

Results

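Shoots of Arabidopsis thaliana seedlings of a phyAB mutant, named for the photoreceptors phytochrome A and phytochrome B, were compared with shoots of the accession Col-0, both at 27 °C by day. The comparison takes the libraries whose titles give these genotypes, this tissue and this temperature. It rests on 3 phyAB and 3 Col-0 libraries, 6 of the 36 libraries of the series, and positive differences mean higher in phyAB. The series also holds roots, groups at 21 °C and a hy5 mutant, HY5 being a transcription factor of light signalling. All groups used here had 16 h of light and 8 h of dark per day, at a light intensity labelled 50 uM, and shoots were taken 6 days after germination. The 27 °C groups had nights at 21 °C and the 21 °C groups nights at 15 °C. The time spent at 27 °C is labelled in conflicting ways, as 4 h and as 3 days, and the labels name no alleles for phyAB. Nothing in the labels says that replicates came from separate cultures, so p-values may measure only the spread between these samples.

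Phytochromes are red and far-red light receptors. In the light their active form enters the nucleus and brings down the PIF proteins, bHLH transcription factors that drive elongation growth. Shade is rich in far-red light and lowers active phytochrome, PIF targets then rise, and auxin made in young leaf tissue lengthens hypocotyls and petioles. Phytochrome B also loses its active form faster in warmth and is a thermosensor of the seedling. Seed storage proteins and oleosins, by contrast, are made in the maturing embryo and are normally shut off once the seedling grows.

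The 6 libraries held 17387180 to 22000845 reads counted in genes, and the 18 shoot libraries fitted together 17008543 to 23880472. Levels are CPM, reads per 1000000 counted reads after scaling with TMM factors. Multiply aligned reads, which are not counted, made up 9.02% to 28.8% over the 6 libraries, with 27.8% in Col-0 replicate 3 and 28.8% in phyAB replicate 3. The shoot label was checked with 49 photosystem, antenna and Rubisco genes, which summed to 236731 to 239173 CPM in Col-0 and 174904 to 195614 CPM in phyAB. The 20 root marker genes summed to 16.2 to 17.6 CPM in Col-0 and 30.0 to 44.4 CPM in phyAB. These are bulk shoots, in which fewer cells of a type and less RNA per cell cannot be told apart.

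The genotype difference was wide. Of 20100 genes tested, 8534 (42.5%) differed between phyAB and Col-0 at an adjusted p under 0.05 in edgeR's quasi-likelihood test, with 3774 higher in phyAB (18.8%) and 4760 lower (23.7%). At least 2-fold higher were 1048 genes (5.21%), and at least 2-fold lower 393 (1.96%). The median log2 difference over all genes tested was -0.02. In 23.6% of genes all 3 phyAB libraries lay above all 3 Col-0 libraries, and in 28.3% all lay below, so list counts stand beside these shares. Unless named otherwise, differences are log2 fold changes ± SE, and a gene is called higher or lower where it passed the test.

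The receptor genes themselves were read first. PHYA (AT1G09570), the receptor of far-red light, stood at 129, 148 and 145 CPM in Col-0 replicates 1, 2 and 3 and at 37.9, 45.3 and 42.8 CPM in the phyAB replicates. All phyAB libraries lay far below all Col-0 libraries, with a log2 fold change of -1.74 ± 0.09 (SE; edgeR adjusted p = 6.86e-11). PHYB (AT2G18790), the main receptor of red light, stood at 72.2, 67 and 65.2 CPM in Col-0 and 59, 64.7 and 57.5 CPM in phyAB. The phyAB libraries lay below those of Col-0 without overlap, but the difference of -0.17 ± 0.07 did not pass (edgeR adjusted p = 0.0621). With the replicate number as a block it passed, at a log2 fold change of -0.18 (edgeR adjusted p = 0.0262), and without phyAB replicate 2 it passed as well (edgeR adjusted p = 0.0329). Protein was not measured, so a transcript that is still read may or may not give a receptor.

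Among the other phytochromes, PHYE was slightly higher in phyAB, with 33.9, 33.4 and 31.8 CPM in Col-0 and 36.3, 37.7 and 39.5 CPM in phyAB (log2 fold change 0.20 ± 0.06, edgeR adjusted p = 0.01). PHYC and PHYD, at -0.09 ± 0.06 and -0.03 ± 0.08, were not called. The call for PHYE was lost without phyAB replicate 3 (edgeR adjusted p = 0.0506) and without the libraries numbered 3 (edgeR adjusted p = 0.161). Of 6 PIF genes, 2 were higher, 1 was lower and 3 did not pass. PIF7 (AT5G61270), a main driver of shade and warmth growth, stood at 25.5, 28.1 and 27.2 CPM in Col-0 and 12.3, 13 and 11.7 CPM in phyAB, which was lower in every phyAB library (log2 fold change -1.12 ± 0.07, edgeR adjusted p = 1.39e-09). PIF3, the founding member of the family, was higher by 0.85 ± 0.15, and PIF6, listed as PIL2, by 1.98 ± 0.18. PIF4 (85.6, 91.1 and 97.2 against 93.5, 107 and 97.1 CPM) and PIF5, listed as PIL6 (126, 132 and 129.5 against 128, 131 and 121 CPM), overlapped between the genotypes, as did PIF1, listed as PIL5. These values are transcripts, and PIF proteins were not measured.

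Shade marker genes stood well above Col-0. Of 21 markers, 20 were higher in phyAB and none was lower, against 18.8% higher over all genes, and their median log2 difference was 2.53. XTH15 (AT4G14130), a cell wall enzyme that cuts and rejoins xyloglucan, stood at 8.42, 6.6 and 6.97 CPM in Col-0 and 631, 864 and 706 CPM in phyAB. The 3 Col-0 libraries were close to each other and all phyAB libraries lay above them, with a log2 fold change of 6.64 ± 0.20 (edgeR adjusted p = 1.94e-13). ST2A (AT5G07010), a sulfotransferase that acts on a jasmonate derivative, rose from 2, 2.18 and 2.5 to 121, 122 and 118 CPM. Its phyAB libraries differed little among themselves, and the log2 fold change was 5.75 ± 0.12 (edgeR adjusted p = 7.6e-16).

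Regulators of the shade response were among the markers that rose. PIL1 (AT2G46970), a bHLH protein that is an early marker of shade, stood at 0.718, 0.812 and 0.272 CPM in Col-0 and 29.5, 32.8 and 24.1 CPM in phyAB (log2 fold change 5.55 ± 0.21, edgeR adjusted p = 1.8e-12). HFR1 (AT1G02340), a bHLH protein that binds PIFs and holds them back, stood at 2.57, 3.3 and 3.16 CPM in Col-0 and 83.8, 93 and 75.1 CPM in phyAB (log2 fold change 4.80 ± 0.13, edgeR adjusted p = 2.04e-14). The homeodomain factor HB-2 (AT4G16780), which promotes shade growth, stood at 7.75, 6.14 and 6.48 CPM in Col-0 and 39, 46.3 and 32.4 CPM in phyAB. In each of these genes all phyAB libraries lay above all Col-0 libraries. PAR1, a further brake on the response, was higher by 2.70 ± 0.13, and its relative PAR2 by 0.39 ± 0.09. The homeodomain genes HB4, HAT3 and HAT2 were higher by 2.09 ± 0.17, 1.28 ± 0.12 and 0.88 ± 0.11. HAT1, with 41, 46.7 and 45.3 CPM in Col-0 and 54, 52.7 and 45.7 CPM in phyAB, was the marker that did not pass (log2 fold change 0.20 ± 0.09, edgeR adjusted p = 0.0721), and its groups overlapped.

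Further markers tie shade to hormones and to phytochrome itself. CKX5 (AT1G75450), an enzyme that breaks down cytokinin, stood at 1.74, 1.62 and 1.69 CPM in Col-0 and 33.9, 33.9 and 25.3 CPM in phyAB (log2 fold change 4.20 ± 0.18, edgeR adjusted p = 1.06e-11). FHL (AT5G02200), which helps phytochrome A enter the nucleus, was higher by 3.82 ± 0.28, from 0.297 ± 0.132 to 4.24 ± 0.403 CPM (mean ± SD, n = 3). PKS4, a phytochrome kinase substrate, was higher by 1.44 ± 0.17. The growth-promoting HLH genes KDR and PRE1 were higher by 1.13 ± 0.10 and 1.03 ± 0.17, and BIM1, a partner of brassinosteroid factors, by 0.77 ± 0.07.

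**Figure D1:**
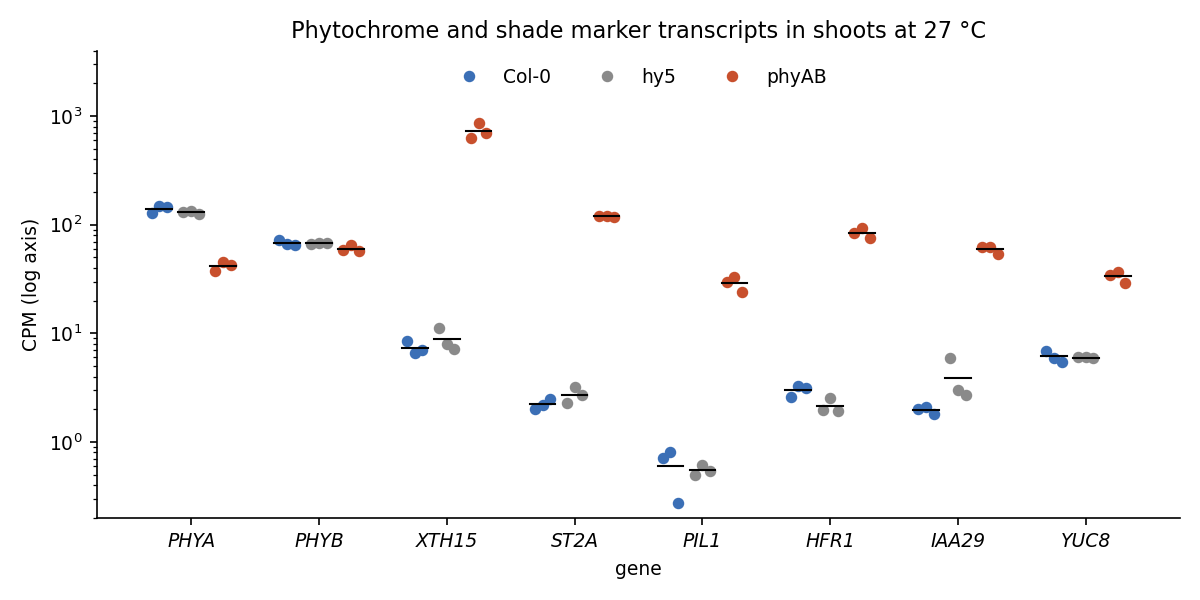
CPM of PHYA, PHYB and 6 shade markers in each shoot library at 27 °C, on a log axis, with points for libraries and bars for group means of 3. XTH15, ST2A, PIL1, HFR1, IAA29 and YUC8 lie higher in phyAB than in Col-0 and hy5, while PHYA lies lower in phyAB.

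The 300 bases before the annotated start of each gene were searched on both strands for 2 core sequences that PIF proteins are known to bind, the G-box CACGTG and the PBE-box CATGTG. A PBE-box was found in 7 of the 21 shade markers (33.3%) and in 13.02% of 20004 windows of all genes tested. A G-box was found in 2 of 21 (9.52%) and in 8.21% of all windows. Among the windows of the 1040 genes at least 2-fold higher in phyAB, 20.6% held a PBE-box and 13.2% a G-box. Among the 393 at least 2-fold lower, 14.2% held a PBE-box and 8.14% a G-box. Of the 12 largest steady rises described below, 1 held a PBE-box and none a G-box. Of the 49 photosystem, antenna and Rubisco genes, 6 held a PBE-box (12.2%) and 12 a G-box (24.5%). Of the 12 tested seed storage and oil body genes described below, 5 held a PBE-box (41.7%) and 5 a G-box (41.7%). Both shares are above those of the shade markers. The windows of XTH15, ST2A, PIL1 and HFR1 held neither sequence. The stretches of 3 shade markers with matches follow. They show the 150 bases before the start, read in the direction of the gene from the TAIR10.1 reference of RefSeq, with G-box and PBE-box letters in capitals.
FHL, chr5:437215-437364, + strand: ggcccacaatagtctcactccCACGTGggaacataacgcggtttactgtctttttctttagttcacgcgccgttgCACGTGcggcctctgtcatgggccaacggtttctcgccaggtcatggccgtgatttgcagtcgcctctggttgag
IAA19, chr3:5263851-5264000, + strand: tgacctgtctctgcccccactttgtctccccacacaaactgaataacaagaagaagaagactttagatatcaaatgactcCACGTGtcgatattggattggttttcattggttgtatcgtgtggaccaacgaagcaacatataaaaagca
YUC8, chr4:14192419-14192568, + strand: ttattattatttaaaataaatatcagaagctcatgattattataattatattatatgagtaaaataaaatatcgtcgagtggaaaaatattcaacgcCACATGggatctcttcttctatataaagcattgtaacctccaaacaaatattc
FHL held 2 G-boxes in this stretch and IAA19 held 1, and YUC8 held 1 PBE-box, written here as its reverse complement CACATG. A match is a description of letters and not a site shown to be bound.

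Auxin synthesis genes went both ways, with 4 of 12 genes tested higher and 5 lower. YUC8 (AT4G28720), a flavin monooxygenase that makes auxin in response to shade and warmth, stood at 6.93, 5.99 and 5.44 CPM in Col-0 and 34.4, 36.9 and 29.1 CPM in phyAB, without overlap (log2 fold change 2.45 ± 0.10, edgeR adjusted p = 1.14e-11). YUC9, YUC3 and YUC2 were higher by 2.56 ± 0.26, 1.74 ± 0.21 and 1.50 ± 0.14. YUC1, YUC5 and YUC6 did not pass, at -0.04, -0.26 and 0.24. TAA1, the aminotransferase that feeds the YUC enzymes, was lower. It stood at 18.4, 16.5 and 15.7 CPM in Col-0 and 7.87, 9.86 and 11.7 CPM in phyAB (log2 fold change -0.79 ± 0.13, edgeR adjusted p = 9.85e-05). TAR2, YUC4, CYP79B2 and CYP79B3 were lower too, at -0.42 ± 0.09, -0.97 ± 0.23, -0.52 ± 0.08 and -0.30 ± 0.07.

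Genes that answer to auxin were mostly higher. Of 18 Aux/IAA and GH3 genes tested, 16 were higher and none was lower, with a median log2 difference of 1.28. IAA29 (AT4G32280), an auxin-induced repressor protein, stood at 2, 2.08 and 1.8 CPM in Col-0 and 62.9, 62.8 and 53.3 CPM in phyAB (log2 fold change 4.92 ± 0.21, edgeR adjusted p = 1.09e-11). IAA19 (AT3G15540), of the same family, stood at 5.7, 5.63 and 4.95 CPM and 67.1, 74.1 and 58.4 CPM (log2 fold change 3.61 ± 0.16, edgeR adjusted p = 1.26e-11). GH3.5, listed as WES1, which joins auxin to amino acids, was higher by 1.80 ± 0.10. IAA5 and GH3.2, listed as BRU6, did not pass, and GH3.4, with no read in these 6 libraries, was not tested. All 15 SAUR genes of the list, small auxin-induced proteins that promote cell expansion, were higher, with a median of 1.23. SAUR22 stood at 1.33, 0.761 and 1.03 CPM in Col-0 and 11.7, 11.3 and 9.94 CPM in phyAB (log2 fold change 3.39 ± 0.19, edgeR adjusted p = 3e-10). SAUR23 and SAUR19 were higher by 3.29 ± 0.22 and 2.84 ± 0.21. SAUR genes stand in clusters of similar copies, and reads that align at several places are not counted, so the split between neighbours is uncertain.

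Cell wall genes split within families. Of 25 xyloglucan and expansin genes, 15 were higher and 4 lower, with a median of 0.73. XTH17 (AT1G65310), a xyloglucan enzyme, stood at 14, 12.1 and 8.87 CPM in Col-0 and 159, 125 and 133 CPM in phyAB (log2 fold change 3.57 ± 0.15, edgeR adjusted p = 1.14e-11). XTH4, of the same family, stood at 649.5, 634 and 628 CPM and 1621, 1654 and 1632 CPM, higher by 1.36 ± 0.10 on the log2 scale. Expansins, which loosen walls, lay on both sides. EXPA1 (AT1G69530) was lower, with 445, 425 and 387 CPM in Col-0 and 196, 169 and 182 CPM in phyAB (log2 fold change -1.20 ± 0.12, edgeR adjusted p = 3.46e-07). EXPA10, EXPA15 and EXPA4 were also lower, at -1.20 ± 0.15, -1.06 ± 0.12 and -0.34 ± 0.10, while EXPA3, EXPA8 and EXPA11 were higher by 0.87 ± 0.08, 0.73 ± 0.18 and 0.81 ± 0.14. With the replicate number as a block, 7 genes of the list were lower.

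Brassinosteroids and gibberellins are growth hormones that act with PIFs. Of 14 brassinosteroid genes, 10 were higher and 1 lower, with a median of 0.39. BR6OX2 (AT3G30180), of the last steps of synthesis, stood at 19.8, 15.7 and 17.2 CPM in Col-0 and 38.2, 45.8 and 37.1 CPM in phyAB (log2 fold change 1.20 ± 0.13, edgeR adjusted p = 8.59e-07). BR6OX1 and the inactivating enzymes CYP72C1 and BAS1 were higher by 1.72 ± 0.22, 0.83 ± 0.11 and 0.83 ± 0.11, and the receptor gene BRI1 by 0.56 ± 0.08. CYP90D1, another synthesis enzyme, was the gene that was lower, at -1.04 ± 0.20. Of 25 gibberellin genes, 12 were higher and 4 lower, with a median of 0.32. GA2OX6 (AT1G02400), which inactivates gibberellin, stood at 2, 2.08 and 1.96 CPM in Col-0 and 9.88, 10.2 and 9.52 CPM in phyAB (log2 fold change 2.29 ± 0.11, edgeR adjusted p = 3.37e-11). The synthesis gene GA20OX1 was higher by 1.22 ± 0.17 and GA3OX1, which makes the active hormone, lower, at -0.69 ± 0.13. The DELLA repressor genes GAI, RGA (listed as RGA1) and RGL3 were higher by 0.68 ± 0.10, 0.32 ± 0.05 and 1.03 ± 0.21, and RGL2 was lower, at -0.95 ± 0.18.

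Genes with the largest steady rises went beyond these lists. They were the 12 largest rises among called genes with at least 5 CPM in phyAB, groups that do not overlap, and an SD of log2(CPM + 0.5) of at most 0.5 within each group. CYP96A5 (AT2G21910), a cytochrome P450, had no read in the 3 Col-0 libraries and 16.8, 19 and 19 CPM in phyAB, at least 350-fold higher when Col-0 is set to 3 reads over the group (edgeR adjusted p = 2.16e-10). AT5G44440, an enzyme of the berberine bridge family, stood at 0.308, 0.102 and 0.218 CPM in Col-0 and 133, 207 and 168 CPM in phyAB (log2 fold change 9.62 ± 0.34, edgeR adjusted p = 9.24e-13). Pectin genes followed: ATPMEPCRD (AT2G43050), of the pectin methylesterase and inhibitor family, rose from 1.03, 0.965 and 0.871 to 82.3, 92.6 and 75.2 CPM. QRT1 (AT5G55590), a pectin methylesterase known for the separation of pollen grains, rose from 0.77, 0.812 and 0.98 to 63.7, 75.5 and 59.8 CPM. ACS8 (AT4G37770), which makes the precursor of ethylene, rose from 1.08, 0.558 and 0.49 to 24.7, 26.6 and 20.1 CPM (log2 fold change 5.06 ± 0.22, edgeR adjusted p = 1.14e-11). AT4G11610, a C2 domain protein, FLP1, a flowering-promoting factor-like protein, and MRD1, known from a methionine over-accumulating mutant, were higher by 6.71 ± 0.33, 6.31 ± 0.43 and 5.10 ± 0.17. XTH15, ST2A, PIL1 and IAA29 complete the 12.

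Photosynthesis transcripts were lower as a broad, shallow group. Of 49 photosystem, antenna and Rubisco genes, 42 were lower and none was higher, against 23.7% lower over all genes, and the median log2 difference was -0.31. RBCS1A (AT1G67090), a Rubisco small subunit, stood at 32375, 31224 and 32042 CPM in Col-0 and 23761, 20668 and 20728 CPM in phyAB (log2 fold change -0.55 ± 0.06, edgeR adjusted p = 5.55e-07). PETC, an iron-sulfur protein of the electron transport chain, was lower, at -0.55 ± 0.06, and ATPD and ATPC1, subunits of the chloroplast ATP synthase, at -0.60 ± 0.06 and -0.46 ± 0.05. In 45 of the 49 genes all phyAB libraries lay below all Col-0 libraries. LHCB2.3, an antenna protein, was the gene with a positive difference, at 0.23 ± 0.10, and it did not pass. When the shoot libraries numbered 3 at 27 °C, those with the most multiply aligned reads, were left out together, 27 of the genes were lower. Copies of the LHCB1 and RBCS families are nearly identical, so their single values are uncertain.

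Chlorophyll synthesis went the same way. Of 18 genes tested, 15 were lower and 1 was higher, with a median of -0.45. CHLI2 (AT5G45930), a subunit of the magnesium chelatase, stood at 168, 168 and 172 CPM in Col-0 and 101, 99.4 and 91.1 CPM in phyAB (log2 fold change -0.80 ± 0.06, edgeR adjusted p = 1.13e-08). HEMA1, GSA2 and GSA1, of the early steps, were lower, at -0.63 ± 0.07, -0.59 ± 0.06 and -0.50 ± 0.05, and CHLI1 at -0.53 ± 0.05. PORA, the protochlorophyllide reductase of dark-grown seedlings, was the gene that was higher, at 0.205, 0.102 and 0.163 CPM in Col-0 and 1.1, 2.37 and 3.33 CPM in phyAB (log2 fold change 3.79 ± 0.66, edgeR adjusted p = 0.000152). Its phyAB replicate 1 was lowest and replicate 3 highest, as in the seed genes CRA1 and CRU3 below. Levels this low in Col-0 leave little room for a fall to be called. Among 4 greening regulators, GLK1, listed as GPRI1, was higher by 0.45 ± 0.07, GLK2 by 0.21 ± 0.08, and the GATA factor gene CGA1 lower, at -0.70 ± 0.16. The GLK2 call was lost without Col-0 replicate 2 or 3, without phyAB replicate 1 or 2, and without the libraries numbered 3, at edgeR adjusted p of 0.0501 to 0.19.

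**Figure D2:**
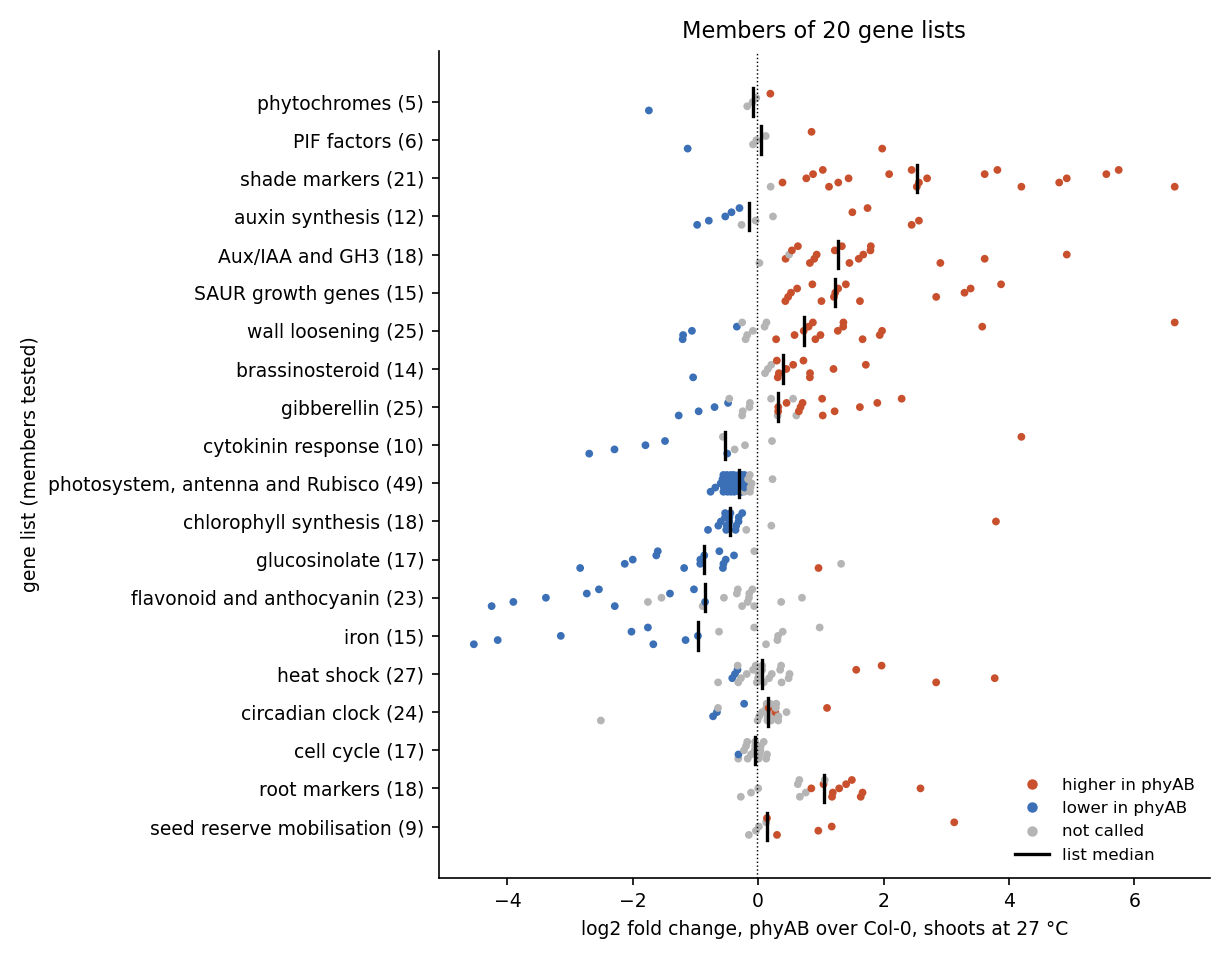
Log2 fold changes of phyAB over Col-0 in shoots at 27 °C for each tested member of 20 gene lists, coloured by call, with a bar at each list's median. Shade, Aux/IAA and GH3 and SAUR genes lie to the right of 0, with medians of 2.53, 1.28 and 1.23, and photosystem, chlorophyll and glucosinolate genes lie mostly to the left.

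Of 30 tested genes of HY5, COP1 and B-box light signalling, 10 were higher, none was lower and 20 did not pass, with a median of 0.05. HY5 itself stood at 7.85, 7.56 and 6.53 CPM in Col-0 and 10.2, 8.61 and 6.98 CPM in phyAB, with overlap (edgeR adjusted p = 0.303). COP1, the ubiquitin ligase that removes HY5 in the dark, stood at 33.5, 32 and 32.6 CPM in Col-0 and 32.4, 33.6 and 31.8 CPM in phyAB (edgeR adjusted p = 0.988). B-box genes moved more: BBX29 (AT5G54470) stood at 1.8, 1.88 and 1.69 CPM in Col-0 and 8.83, 11 and 7.77 CPM in phyAB (log2 fold change 2.36 ± 0.17, edgeR adjusted p = 8.73e-09). BBX21 and BBX28 were higher by 1.07 ± 0.07 and 0.90 ± 0.09. The blue light receptor gene PHOT1 was higher by 0.71 ± 0.07, while CRY1 and CRY2 did not pass, at -0.03 ± 0.06 and 0.14 ± 0.07.

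Flavonoids and anthocyanins are the pigments and sunscreens of the seedling. Of 23 of their genes, 9 were lower in phyAB and none was higher, with a median of -0.85. FLS1 (AT5G08640), which makes flavonols, stood at 13.2, 10.4 and 9.8 CPM in Col-0 and 4.99, 5.47 and 6.03 CPM in phyAB, without overlap (log2 fold change -1.02 ± 0.19, edgeR adjusted p = 0.000345). The calls of 3 anthocyanin enzymes were lost without Col-0 replicate 1. DFR stood at 15.3, 3.1 and 1.74 CPM in Col-0 and 0.457, 0.56 and 0.952 CPM in phyAB, and LDOX at 11.2, 3.5 and 2.72 CPM and 1.14, 0.646 and 0.846 CPM, with Col-0 replicate 1 highest in both. UF3GT stood at 3.03, 0.406 and 0.436 CPM and 0.137, 0.0431 and 0 CPM, with the same Col-0 library highest (log2 fold change -4.25 ± 1.32, edgeR adjusted p = 0.0151). Without Col-0 replicate 1 the edgeR adjusted p was 0.187 for DFR, 0.0835 for LDOX and 0.197 for UF3GT, and without phyAB replicate 2 that of UF3GT was 0.0528. Without Col-0 replicate 1, 1 gene of the list was lower and 1 higher, and without phyAB replicate 2, 3 were lower.

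Glucosinolates are sulfur-rich defence compounds of the cabbage family, and those made from methionine pass through the BCAT4, MAM1 and CYP79F1 steps. Of 17 glucosinolate genes, 14 were lower in phyAB and 1 higher, with a median of -0.86. BCAT4 (AT3G19710) stood at 93.5, 101 and 97.2 CPM in Col-0 and 26, 25.4 and 21.3 CPM in phyAB, without overlap (log2 fold change -2.00 ± 0.11, edgeR adjusted p = 1.76e-10). MAM1 (AT5G23010), which lengthens the side chain, stood at 210.4, 224 and 211 CPM and 74.7, 74.2 and 63.8 CPM (log2 fold change -1.60 ± 0.09, edgeR adjusted p = 6.21e-10). CYP79F1 (AT1G16410) stood at 123, 115 and 108 CPM and 30.6, 25.9 and 22.3 CPM (log2 fold change -2.13 ± 0.15, edgeR adjusted p = 5.78e-09). The MYB factors of this branch were lower too, MYB76 at -2.84 ± 0.36, MYB29 at -1.62 ± 0.13 and MYB28 at -0.55 ± 0.05. In the indole branch, CYP83B1 was lower, at -0.52 ± 0.09, MYB51 was higher by 0.96 ± 0.12, and MYB34 did not pass, at -0.06 ± 0.10.

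Cytokinin response genes were lower where they changed, apart from CKX5. Of 10 tested, 5 were lower and 1 higher, with a median of -0.53. ARR4 (AT1G10470), a type-A response regulator that dampens cytokinin signalling, stood at 81.1, 80.9 and 77.5 CPM in Col-0 and 17.9, 13.5 and 17.6 CPM in phyAB (log2 fold change -2.29 ± 0.11, edgeR adjusted p = 3.1e-11). ARR7 (AT1G19050), of the same class, stood at 11, 10.7 and 10.3 CPM and 1.78, 1.25 and 1.96 CPM (log2 fold change -2.69 ± 0.13, edgeR adjusted p = 4.29e-11). ARR6, ARR15 and ARR9 were lower, at -1.80 ± 0.13, -1.48 ± 0.41 and -0.49 ± 0.08, and in each of these 5 genes the groups did not overlap. ARR5, listed as RR5, stood at 6.41, 6.19 and 7.95 CPM and 5.58, 5.85 and 6.34 CPM and did not pass.

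The largest steady falls, by the same rule with at least 5 CPM in Col-0, included both of these regulators. MEE3 (AT2G21650), a homeodomain-like protein, stood at 7.39, 7.82 and 10.1 CPM in Col-0 and 0.457, 0.56 and 0.687 CPM in phyAB (log2 fold change -3.89 ± 0.30, edgeR adjusted p = 2.28e-08). KIN1 (AT5G15960), a cold-induced protein, stood at 7.08, 7.46 and 7.73 CPM and 0.778, 0.387 and 0.634 CPM (log2 fold change -3.63 ± 0.25, edgeR adjusted p = 5.65e-09). HMT3 (AT3G22740), a methyltransferase that forms methionine, stood at 5.65, 6.14 and 5.28 CPM and 0.412, 0.689 and 0.529 CPM (log2 fold change -3.37 ± 0.20, edgeR adjusted p = 1.02e-09). AHP4, a phosphotransfer protein of cytokinin signalling, was lower, at -2.52 ± 0.21, and MES18, a methyl esterase, at -2.49 ± 0.28. The peroxidase gene AT2G38390, the P450 gene AT1G66540, and AT2G05510, AT2G32870 and AT1G11070 were lower by 2.45 to 2.93 on the log2 scale. KIN1 and KIN2 are close copies. In the cold list of 8 tested genes, 3 were higher, COR47 by 1.46 ± 0.15, ERD10 by 0.78 ± 0.11 and GolS3 by 2.04 ± 0.24, and KIN1 and KIN2 were lower.

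In the iron list, 8 of 15 genes were lower and none was higher, but the members divide by how far 1 library decides them. Ferritins, which store iron, were lower in every phyAB library. FER1 (AT5G01600) stood at 323, 301 and 271 CPM in Col-0 and 54.3, 112 and 98 CPM in phyAB (log2 fold change -1.76 ± 0.21, edgeR adjusted p = 3.79e-06), and FER3 and FER4 were lower, at -1.67 ± 0.14 and -1.16 ± 0.13. BHLH100, a factor induced by iron shortage, stood at 45, 1.62 and 0.49 CPM in Col-0 and 0.732, 0.474 and 0.846 CPM in phyAB, with overlap, and Col-0 replicate 1 alone was high. Without that library 4 genes of the list were lower and 5 higher.

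Heat shock, clock and cell cycle genes showed few calls. Of 27 heat shock genes tested, 4 were higher and 3 lower, with a median of 0.06. HSP101 and HSP70, main chaperones of the heat response, did not pass, at 26.9, 24.9 and 24.1 against 24.5, 24 and 27.5 CPM and 141, 134 and 112 against 117, 86 and 106 CPM. HSP90.1 was lower, at -0.37 ± 0.13. The 4 that were higher were small heat shock proteins. HSP17.6A (AT5G12030) stood at 1.44, 1.17 and 1.14 CPM in Col-0 and 4.99, 15.8 and 31.2 CPM in phyAB, and HSP17.4 at 2.36, 1.88 and 1.91 CPM and 5.95, 13.6 and 24.9 CPM. HSP26.5 and HSP23.6-MITO were higher by 1.97 ± 0.49 and 1.56 ± 0.39, and all 4 were highest in phyAB replicate 3. The HSP23.6-MITO call was lost without the libraries numbered 3 (0.87, edgeR adjusted p = 0.104). With the replicate block 5 heat shock genes were lower, and 1 was without Col-0 replicate 1 or 2 or without phyAB replicate 2 or 3.

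Of 24 clock genes, 3 were higher and 3 lower. LUX, listed as PCL1, and CDF1 were lower, at -0.66 ± 0.16 and -0.72 ± 0.10, and BOA, a relative of LUX, was higher by 1.10 ± 0.36, a call lost without Col-0 replicate 1 or without phyAB replicate 2 or 3. Several clock genes differed between replicate numbers in both genotypes: the morning gene LHY stood at 22.1, 9.75 and 4.85 CPM in Col-0 and 19.7, 13.5 and 9.09 CPM in phyAB, and PRR5, an afternoon gene, at 1.08, 2.39 and 6.48 CPM and 1.97, 3.92 and 7.83 CPM. With the replicate number as a block, 9 clock genes were higher. Of 17 cell cycle genes, 1 was lower, PCNA1 at -0.31 ± 0.09, with overlapping groups and a call lost without Col-0 replicate 1, without phyAB replicate 2, and in a fit of only these 6 libraries, and the differences over the list ran from -0.32 to 0.14. With the block 2 were lower.

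Smaller hormone and metabolic lists were mixed. Of 10 flowering genes tested, 2 were higher and 5 lower, FLC, a repressor of flowering, at -0.84 ± 0.13 and MAF4, its relative, at -1.52 ± 0.26 among the latter, while SVP was higher by 0.43 ± 0.09. Of 17 jasmonate genes tested, 5 were higher and 1 lower: the synthesis gene AOC2 stood at 58.1, 37.5 and 50.4 CPM in Col-0 and 129, 137 and 119 CPM in phyAB (log2 fold change 1.40 ± 0.16, edgeR adjusted p = 2.39e-06), and the storage gene VSP1 was lower, at -1.22 ± 0.35. Of 14 salicylic acid and immunity genes tested, 3 were higher and 1 lower, with WRKY70 at 1.44 ± 0.26 and PR5 at -1.86 ± 0.39. CBP60G, also higher at 0.51, lost its call in DESeq2 and in a fit of only these 6 libraries. The call was lost too without phyAB replicate 3 (edgeR adjusted p = 0.219) and without the libraries numbered 3 (edgeR adjusted p = 0.317). Among 15 genes of low sugar state, 6 were higher and 1 lower. SEN1, a senescence and dark marker listed as AT4G35770, stood at 21.3, 41.9 and 46.7 CPM in Col-0 and 170.1, 345 and 231 CPM in phyAB, without overlap (log2 fold change 2.76 ± 0.27, edgeR adjusted p = 2.76e-07).

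Seed storage and oil body transcripts were far higher in phyAB but differed widely between its replicates. The 15 genes of the list summed to 208, 493 and 1178 CPM in phyAB replicates 1, 2 and 3, and to 1.52 to 2.23 CPM in Col-0. CRA1 (AT5G44120), a cruciferin of the 12S globulin class, stood at 0.257, 0.305 and 0.381 CPM in Col-0 and 105, 279 and 613 CPM in phyAB (log2 fold change 10.02 ± 0.97, edgeR adjusted p = 3.04e-07). CRU3 (AT4G28520), another cruciferin, stood at 0.0513, 0.102 and 0.109 CPM and 79.4, 158 and 412 CPM (log2 fold change 11.18 ± 1.15, edgeR adjusted p = 5.98e-07). The groups did not overlap in either gene, and phyAB replicate 3 was highest and replicate 1 lowest.

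The other members tested were higher as well. PAP85, a vicilin-like globulin, stood at 0.154, 0.305 and 0.272 CPM in Col-0 and 10.1, 26.6 and 63.3 CPM in phyAB. SESA5, a 2S albumin, stood at 0.359, 0.102 and 0 CPM and 5.4, 13.6 and 39 CPM, and OLEO1, an oleosin that coats oil bodies, at 0, 0.0508 and 0.218 CPM and 2.74, 6.5 and 18.4 CPM. In these genes phyAB replicate 3 was again the highest. OLEO2 stood at 0.823, 2.88 and 8.25 CPM in phyAB, OLEO4 at 0.823, 1.72 and 7.03 CPM and CRU2 at 0.366, 0.99 and 2.54 CPM, with less than 1 CPM in each Col-0 library. ATS1, a caleosin listed as AT4G26740, stood at 0, 0.305 and 0 CPM and 0.366, 0.646 and 1.74 CPM. The call of ATS1 was lost without Col-0 replicate 1 or 3 and that of OLEO4 without Col-0 replicate 3, and both were lost without phyAB replicate 3 and without the libraries numbered 3. Without the latter the calls of CRU2, OLEO2 and SESA4 were lost too. In DESeq2 the call of ATS1 was lost as well. SESA4 had no read in Col-0 and 0.183, 0.344 and 1.43 CPM in phyAB. SESA2 stood at 1.88, 1.72 and 6.87 CPM and SESA3 at 1.19, 0.517 and 4.34 CPM in phyAB. Both had 3 reads in Col-0, and the ratios of phyAB to Col-0 were 63.2 (95% exact interval 21.3 to 309) and 35.97 (12.02 to 177), which cover counting error only. SESA1 had no read in Col-0 and 17 in phyAB. SESA1, the 11-beta-hydroxysteroid dehydrogenase HSD1 and OLEO3 were too low to be tested, OLEO3 with 1 read in Col-0 and 16 in phyAB, and HSD1 with none in either. The filter kept 12 members that are high only in phyAB, so that their calls had to be rises and their number is no result. Among these 12 the highest phyAB library exceeded the lowest by 3.99-fold (SESA2) to 10.02-fold (OLEO2). Without the 3 libraries numbered 3 at 27 °C, 7 of them passed.

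What lies beside the seed transcripts was traced by their spread. Of 2844 genes called higher with at least 5 CPM in phyAB, 40 had an SD of log2(CPM + 0.5) above 0.5 among the phyAB libraries. Of these, 10 belong to the lists of seed storage and seed maturation genes and 30 do not. The 30 include ICL and MLS of the reserve mobilisation list, and AT3G15670 and AT3G17520, annotated as LEA (late embryogenesis abundant) proteins. They also include the chloroplast genes ATCG00780, ATCG00800 and ATCG00810, the low sugar genes SEN1 and ASN1, and others such as THA1, BGLU28 and PELPK1. In 22 of the 30 phyAB replicate 3 was the highest library. How often it was highest over all genes tested was not counted, so the 22 only describe these genes. Of the 485 genes called higher by at least 2-fold with at least 5 CPM, 445 had an SD of at most 0.5, with XTH15, ST2A, PIL1 and HFR1 among them. Genes of wide spread pass the test less easily, so this selection partly sets how few called genes are wide. The multiply aligned share was also highest in replicate 3 (28.8%, against 9.02% and 9.61% in the other phyAB libraries), and its part in these values was not tested.

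The 10 largest rises among the 30 wide genes were of several kinds. AT5G35660, a glycine-rich protein, had 1 read in Col-0 and stood at 16.2, 26 and 63.3 CPM in phyAB, a ratio of summed reads of 1941 (95% exact interval 348 to 76682). AT1G54870, a short-chain dehydrogenase-like protein, rose from 0.103, 0.0508 and 0.0544 to 3.66, 9.82 and 25.9 CPM. LCR67, a small cysteine-rich protein of the defensin kind, rose from 0.154, 0.203 and 0.327 to 7.82, 23.5 and 54.6 CPM (log2 fold change 6.93 ± 1.06, edgeR adjusted p = 4.4e-05). All 3 were highest in phyAB replicate 3. The ratios of AT1G04560, an AWPM-19-like membrane protein, and AT2G05580, a glycine-rich protein, were 280 (95% exact interval 49.8 to 11081, from 1 read in Col-0) and 148 (40.7 to 1230, from 2 reads). The phyAB libraries stood at 2.79, 4.09 and 8.2 CPM and 1.97, 3.79 and 10.5 CPM in these genes, and the intervals cover counting error only, not this spread between libraries. AT3G56350, a superoxide dismutase, AT1G03106, the extensin AT2G27380, BGLU19 and the papain-like protease AT3G54940 were higher by 6.19 ± 1.04, 5.36 ± 0.90, 4.73 ± 0.79, 4.03 ± 0.67 and 3.95 ± 0.70.

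Genes of seed maturation and reserve use named here had the same order of phyAB libraries, replicate 1 lowest and replicate 3 highest. Of 15 tested seed maturation and LEA genes, 12 were higher, a count that the filter on low values also shapes. M17 (AT2G41260), a late embryogenesis protein, stood at 0.565, 0.406 and 0.163 CPM in Col-0 and 13.1, 45.2 and 129 CPM in phyAB (log2 fold change 7.32 ± 1.10, edgeR adjusted p = 3.66e-05). ECP31 had no read in Col-0 and 1.14, 5.08 and 9.15 CPM in phyAB. ABI3, the master factor of seed maturation, stood at 0.154, 0.305 and 0.327 CPM and 1.01, 1.77 and 2.7 CPM (log2 fold change 2.76 ± 0.67, edgeR adjusted p = 0.00291), while its partners LEC1, LEC2 and FUS3 were under 0.5 CPM in all 6 libraries and not tested. Of 9 reserve mobilisation genes, 5 were higher, against 2 without Col-0 replicate 1 or phyAB replicate 3 and 3 without Col-0 replicate 2 or 3. ICL (AT3G21720), isocitrate lyase of the glyoxylate cycle that turns oil into sugar, stood at 3.95, 4.72 and 5.17 CPM and 19.6, 36.5 and 65.6 CPM (log2 fold change 3.13 ± 0.64, edgeR adjusted p = 0.000702), and MLS, malate synthase of the same cycle, at 4.11, 6.5 and 6.64 CPM and 5.99, 11.5 and 21.8 CPM, with overlap. PCK1, which follows in the path to sugar, did not pass, at -0.03 ± 0.09.

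Of 18 abscisic acid genes tested, 10 were higher and 1 lower. ABI3 and ABI5 belong to this list and to the seed maturation list, so the counts of these lists are not separate. NCED3, the rate-limiting step of abscisic acid synthesis in drought, was higher by 1.38 ± 0.18, from 1.69, 1.52 and 2.01 to 5.35, 4.05 and 4.18 CPM. RAB18, a dehydrin listed as AT5G66400, stood at 3.34, 2.74 and 3.21 CPM in Col-0 and 7.09, 18.6 and 34.8 CPM in phyAB, in the library order of the seed genes. PP2CA, a phosphatase that shuts the pathway off, was lower, at -0.43 ± 0.10. Root markers were higher too: of 18 tested, 10 were higher and none was lower, with a median of 1.05. All 20 together summed to only 16.2 to 17.6 CPM in Col-0. How far the filter on low values shapes this count was not tested. PER64, a peroxidase of the Casparian strip, stood at 2.1, 1.32 and 1.14 CPM and 5.72, 4.05 and 3.12 CPM, with phyAB replicate 1 highest, and PIN2, listed as EIR1, at 1.95, 1.37 and 2.01 CPM and 5.95, 5.98 and 4.6 CPM. The summed root markers were 44.4, 38.1 and 30.0 CPM in phyAB replicates 1, 2 and 3, the reverse of the order of the seed sums. Of the 20 root markers, 3 had no read in phyAB replicate 3 and none was without reads in replicates 1 and 2. The part of root RNA in the comparison was not tested.

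**Figure D3:**
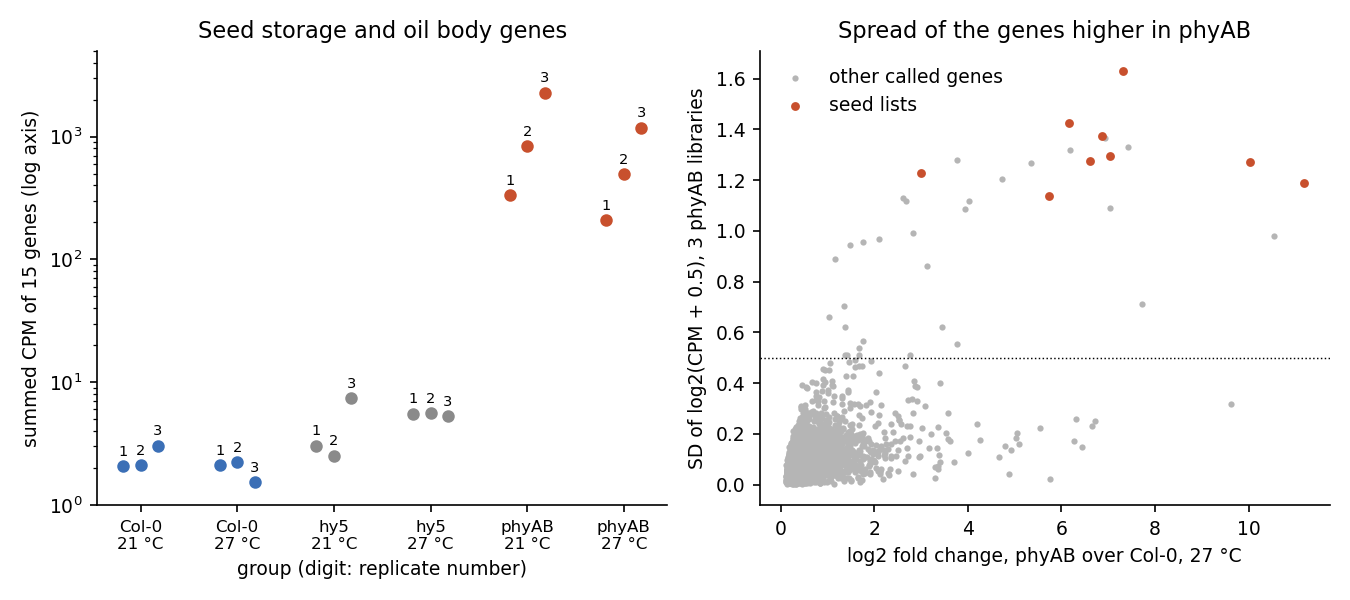
Left, summed CPM of 15 seed storage and oil body genes in each shoot library, on a log axis, with replicate numbers as digits. Right, for genes called higher with at least 5 CPM in phyAB and a read in Col-0, the log2 fold change against the SD of log2(CPM + 0.5) among the 3 phyAB libraries, with a dotted line at 0.5. The phyAB sums run from 208 to 1178 CPM at 27 °C, and the seed genes lie above the line that most other genes stay under.

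The 300-base windows of the tested seed genes were searched on both strands for the RY core CATGCA, which B3 factors such as ABI3 are known to bind. It was found in 11 of 12 windows (91.7%) and in 9.49% of 20004 windows of all genes tested, CRU2 being the gene without it. RY and PBE-box cores share the letters CATG and can overlap, and RY matches can overlap each other. The genes at least 2-fold higher in phyAB held it in 18.6% of windows, and those at least 2-fold lower in 12.7%. These 4 stretches show the 150 bases before the start in the direction of the gene, from TAIR10.1, with RY letters of either strand in capitals. They are a cruciferin, an albumin, an oleosin and a vicilin-like gene.
CRU3, chr4:14087406-14087555, + strand: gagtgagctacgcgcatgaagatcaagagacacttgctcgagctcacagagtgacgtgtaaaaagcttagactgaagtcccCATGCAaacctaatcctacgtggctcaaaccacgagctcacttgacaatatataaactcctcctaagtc
SESA3, chr4:13611646-13611795, + strand: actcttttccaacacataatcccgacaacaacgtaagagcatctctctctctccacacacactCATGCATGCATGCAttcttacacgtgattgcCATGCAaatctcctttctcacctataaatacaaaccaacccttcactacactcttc
OLEO1, chr4:12900280-12900429, + strand: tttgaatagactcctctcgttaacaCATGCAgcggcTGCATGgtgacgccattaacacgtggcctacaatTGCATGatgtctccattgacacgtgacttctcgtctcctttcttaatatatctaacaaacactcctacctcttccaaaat
PAP85, chr3:8013942-8014091, - strand: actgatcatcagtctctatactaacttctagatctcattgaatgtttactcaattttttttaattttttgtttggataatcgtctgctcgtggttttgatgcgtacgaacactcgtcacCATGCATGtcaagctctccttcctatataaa
CRU3 held 1 match in its stretch, SESA3 held 6, OLEO1 held 3 and PAP85 held 2. The matches describe letters, and binding was not measured.

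Whether the genotype difference depended on temperature was tested as the difference between the phyAB effects at 27 °C and at 21 °C. Of 20100 genes, 706 (3.51%) passed, 328 with a higher phyAB effect at 27 °C (1.63%) and 378 with a lower one (1.88%). Both effects use the phyAB and Col-0 libraries of their own temperature. In the shade list 8 of 21 genes had a larger effect at 27 °C and 1, PKS4, a smaller one. XTH15, IAA19, FHL, PIL1 and CKX5 passed narrowly, at edgeR adjusted p of 0.0308 to 0.048. Calls of single genes in this test were not followed through the alternative settings, under which the counts of genes moved. ST2A stood at 2.24, 1.4 and 1.76 CPM in Col-0 and 35.1, 32.4 and 32.1 CPM in phyAB at 21 °C, and its effect was larger at 27 °C by 1.57 ± 0.20 on the log2 scale (edgeR adjusted p = 0.000467). PIL1 stood at 0.762, 0.702 and 0.497 CPM and 12, 12.1 and 10.8 CPM at 21 °C (difference of effects 1.41 ± 0.38, edgeR adjusted p = 0.0464), and XTH15 at 2.92, 1.89 and 3.21 CPM and 134, 118 and 108 CPM (difference 1.18 ± 0.29, edgeR adjusted p = 0.0308). HFR1, IAA29 and YUC8 did not pass this test, with differences of 0.31 ± 0.22, 0.46 ± 0.33 and 0.09 ± 0.16.

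Falls also grew at 27 °C in some lists. ARR4 and ARR7 had lower phyAB effects at 27 °C than at 21 °C, with differences of -0.95 ± 0.14 and -1.22 ± 0.17 (edgeR adjusted p = 0.00188 and 0.000803), and the glucosinolate genes BCAT4, CYP79F1 and MAM1 differed by -1.04 ± 0.14, -0.84 ± 0.20 and -0.56 ± 0.13. In the low sugar list 7 genes had a smaller or more negative effect at 27 °C and 1 a larger one. ASN1, an asparagine synthetase of starved cells, stood at 0.508, 0.81 and 1.49 CPM in Col-0 and 10.9, 24.8 and 24.2 CPM in phyAB at 21 °C, against 20.2, 46 and 52.3 CPM and 49.3, 123 and 70.3 CPM at 27 °C (difference -3.37 ± 0.69, edgeR adjusted p = 0.013). In the jasmonate list 4 genes had a higher effect at 27 °C. AOC2 stood at 126, 168 and 152 CPM in Col-0 and 82.5, 104 and 99.8 CPM in phyAB at 21 °C, which is the opposite direction to 27 °C (difference 2.04 ± 0.23, edgeR adjusted p = 0.000196). Of the heat shock list, HSP101, HSP70, HSP90.1 and HSFA7A had lower effects at 27 °C. HSP90.1 stood at 7.42 ± 1.37 CPM in Col-0 and 12.1 ± 2.89 CPM in phyAB at 21 °C, and at 57 ± 4.42 CPM and 44.2 ± 4.69 CPM at 27 °C (mean ± SD, n = 3).

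The seed transcripts were high at both temperatures. The 15 seed storage and oil body genes summed to 335, 838 and 2273 CPM in phyAB at 21 °C, in replicates 1, 2 and 3 as at 27 °C, and to 2.07 to 3.03 CPM in Col-0. CRA1 stood at 166, 425 and 1195 CPM in phyAB at 21 °C, and its difference between temperatures did not pass (-0.66 ± 2.31, edgeR adjusted p = 0.925). Among the 30 wide genes outside the seed storage and seed maturation lists, phyAB replicate 3 was highest in 20 at 21 °C, and in 19 at both temperatures. These counts too have no share over all genes beside them. The root marker sums were 59.3 to 66.4 CPM in phyAB and 19.9 to 25.3 CPM in Col-0 at 21 °C. The 5 smallest p-values between temperatures were those of the glycosyltransferase gene AT1G01390, with a difference of 1.21 ± 0.11, the methyltransferase-like gene AT1G33170 (1.07 ± 0.10), AT1G61740 (-1.12 ± 0.12), AT5G01790 (1.42 ± 0.15) and the sulfate transporter gene SULTR4;2 (1.35 ± 0.15).

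**Figure D4:**
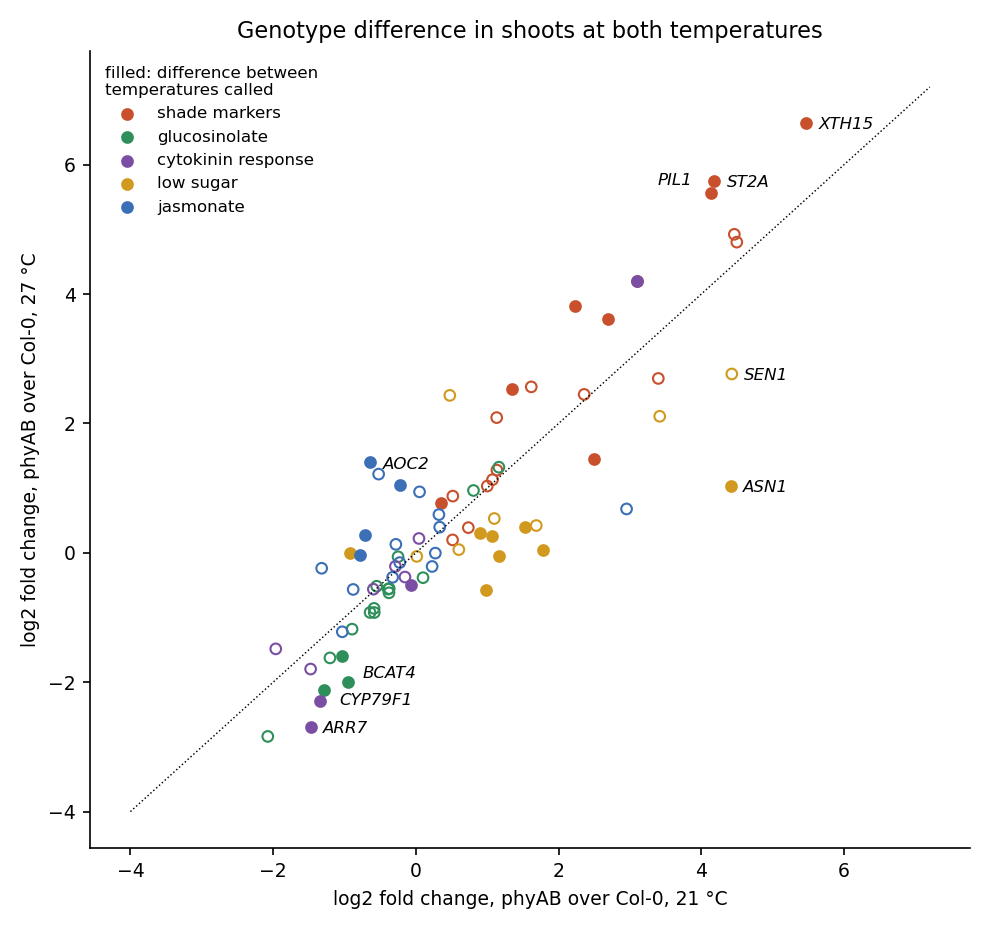
Log2 fold changes of phyAB over Col-0 in shoots at 21 °C (horizontal) and at 27 °C (vertical) for the members of 5 gene lists, with a dotted line of equality and filled points where the difference between temperatures passed. ST2A, PIL1 and XTH15 lie above the line, and ARR7, BCAT4, CYP79F1 and ASN1 lie below it.

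The hy5 shoots at 27 °C gave a second mutant of light signalling as a direct comparison, phyAB minus hy5. Of 20100 genes, 9025 (44.9%) differed, 4203 higher in phyAB (20.9%) and 4822 lower (24.0%). In the shade list 20 of 21 genes were higher in phyAB than in hy5, HAT1 again being the exception (edgeR adjusted p = 0.0578). ST2A stood at 2.26, 3.19 and 2.7 CPM and HFR1 at 1.97, 2.52 and 1.92 CPM in hy5, differences from phyAB of 5.47 ± 0.12 and 5.30 ± 0.13 (edgeR adjusted p = 6.25e-16 and 5.18e-15). AT1G01390 stood at 4.08, 4.92 and 4.55 CPM in hy5, 5.49, 5.84 and 6.26 CPM in Col-0 and 42.7, 49.6 and 44.4 CPM in phyAB. Of 49 photosystem, antenna and Rubisco genes 33 were lower in phyAB than in hy5, and of 17 glucosinolate genes 14. The seed storage and oil body sum was 5.27 to 5.59 CPM in hy5.

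Single genes were read in hy5 beside phyAB. MRD1 stood at 24.3, 26 and 22.6 CPM in hy5, above its level in phyAB by a small margin (phyAB minus hy5 -0.38 ± 0.10, edgeR adjusted p = 0.0041). KIN1 stood at 0.639, 0.838 and 0.779 CPM in hy5, and its difference between the mutants did not pass (-0.33 ± 0.38, edgeR adjusted p = 0.515). Among the 5 smallest p-values of this comparison, AT2G05914 stood at 101, 98.8 and 93.2 CPM in hy5 and at 0.412, 0.129 and 0.211 CPM in phyAB. AT2G03965 stood at 287, 291 and 264 CPM in hy5 and had no read in the phyAB and Col-0 libraries at 27 °C. ST2A, HFR1 and AT1G01390 were the other 3.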

How the data were processed

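RNA from shoots went into stranded mRNA libraries read as single reads of 50 bases, per the labels' protocols. FastQC, TopHat2, HTSeq and edgeR and the TAIR10 build are named in the submitters' processing notes, with no versions, and nothing states whether counting used strand, so a gene and its antisense partner may share reads. The deposited files hold raw counts, whole reads per gene from the authors' counting, for 32833 genes. The 5 summary categories were left out, which removes 9.02% to 28.8% of reads as multiply aligned, 0.697% to 1.46% outside genes and 0.0657% to 0.0845% in overlapping genes in the 6 libraries.

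Counts of 18 shoot libraries in 6 groups were fitted in edgeR 4.0.16 (R 4.3.3) with TMM factors, the default filter on low counts, and group as the only term; the common biological coefficient of variation was 0.0910. Contrasts were tested with the quasi-likelihood test and p-values adjusted over 20100 genes by the Benjamini-Hochberg method, with a threshold of 0.05. The fit was tested on simulated data with the same spread for every gene, unpaired libraries, and changes only in genes of at least 5 CPM. That test does not cover genes of wide spread or of low counts. The SE of a log2 fold change is its size divided by the square root of F. Replicates differed by 3.67 to 14.4 in chi-square per degree of freedom, above sampling noise. Same-numbered phyAB and Col-0 libraries at 27 °C deviated together from their group means (correlations 0.454, 0.256 and 0.518 over 14070 genes), so the numbers pair these samples, a pairing that comes from the data and not from the labels. Same-numbered phyAB and hy5 libraries did too (0.274, 0.227 and 0.387).

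Named genes were the phytochromes, the seed storage list, the 12 steady rises and 12 steady falls, the 10 largest rises that vary between phyAB replicates, the 4 called members with the smallest p in each list, and the 5 smallest p-values of the other contrasts; further members were named to account for a list. The 30 lists (543 pairs of symbol and locus) and the members were chosen with earlier results of these data known. Positions and the 300-base windows come from TAIR10.1, in which 32548 of the genes were matched by locus. Alternatives were other scaling factors, no filter, DESeq2 1.42.0, a replicate block, fewer libraries, and each library left out.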

Additional observations from a re-analysis of the deposited data

Results flagged for a closer look

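The phyAB effect (phyAB minus Col-0, log2) of 58 genes, out of all genes named by the rule and all members of the gene lists, differed between 27 °C and 21 °C in a test of the difference itself, edgeR's quasi-likelihood test adjusted over 20100 genes. Over all 20100 genes tested, 706 (3.51%) passed. AT1G01390, AT1G33170, AT1G61740, AT5G01790 and SULTR4;2 were named for the smallest p-values of this same test, so they had to pass. The 58 therefore only list genes and are no result about the lists. Values are the effect at 27 °C minus that at 21 °C. The effect was higher at 27 °C in 33 of them, TT7 (2.35), AOC2 (2.04), GA20OX1 (1.80), CHIL (1.64), FHL (1.59), ST2A (1.57), AT5G01790 (1.42), PIL1 (1.41), SULTR4;2 (1.35), AOC1 (1.27), AT1G01390 (1.21), XTH15 (1.18), HB-2 (1.18), GolS3 (1.16), CKX5 (1.10), BBX29 (1.10), AT1G33170 (1.07), TT5 (1.05), KIN2 (1.02), AOS (1.0), GA2OX6 (0.93), IAA19 (0.92), TPS5 (0.92), ERD10 (0.91), YUC2 (0.79), BR6OX2 (0.78), LOX3 (0.75), GPRI1, which is GLK1 (0.69), ABI2 (0.64), XTH31 (0.61), RBCS2B (0.56), AT1G29430 (0.45) and BIM1 (0.42). It was lower at 27 °C in 25, ASN1 (-3.37), CASP5 (-2.53), BXL1 (-1.74), HMT3 (-1.60), DIN10 (-1.55), RVE1 (-1.28), HSFA7A (-1.25), ARR7 (-1.22), TPS11 (-1.20), TPS9 (-1.13), AT1G61740 (-1.12), HSP90.1 (-1.08), PKS4 (-1.05), BCAT4 (-1.04), ARR4 (-0.95), HSP70 (-0.95), CYP79F1 (-0.84), TPS8 (-0.80), EXPA1 (-0.79), HSP101 (-0.67), AT1G60140 (-0.59), MAM1 (-0.56), PIL5, which is PIF1 (-0.52), ARR9 (-0.43) and CHLI2 (-0.39). In GLK1 the means at 21 °C were 115 ± 7.34 CPM in Col-0 and 97.7 ± 6.42 CPM in phyAB, and in GA20OX1 5.24 ± 1.05 and 3.5 ± 0.404 CPM (mean ± SD, n = 3), the reverse of the order at 27 °C.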

How the results depend on the processing

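The counts of genes higher and lower in phyAB stayed within 1.5 times under every alternative run, at 2981 to 4055 higher and 3900 to 5005 lower, as did those against hy5; between 6583 and 8523 of the 8534 calls were shared, and with each library left out there were 3188 to 3405 higher and 4060 to 4391 lower. The counts of genes whose phyAB effect differed between temperatures moved more; the cause was not tested. The 328 and 378 genes became 613 and 692 with the replicate number as a block. At 21 °C, same-numbered phyAB and Col-0 libraries deviated together in replicates 1 and 3 (correlations 0.226 and 0.318) but not in replicate 2 (-0.101). Without the 3 libraries numbered 3 at 27 °C, an alternative chosen after seeing the data, the counts were 128 and 131. Leaving out 1 library gave 133 to 416 higher and 140 to 394 lower, with fewer samples in the fit: 177 and 220 without Col-0 21 °C replicate 2, 133 and 140 without Col-0 27 °C replicate 2, 203 and 220 without Col-0 27 °C replicate 3, 217 and 238 without phyAB 21 °C replicate 2, 216 and 250 without phyAB 21 °C replicate 3, and 218 and 243 without phyAB 27 °C replicate 3, while the lower count alone moved to 250 without phyAB 21 °C replicate 1 and to 251 without phyAB 27 °C replicate 2.

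PHYD, called under no alternative, ran from -0.0671 to 0.0238 with a library left out, above 0 without Col-0 replicate 2 (0.0238) and without phyAB replicate 1 (0.00103); the cause was not tested. The replicate block changed the call of PHYB and of no other gene named by rule. DESeq2 lost the calls of 2 of these genes, the widest loss was 11, without the libraries numbered 3, and leaving out Col-0 replicate 1 lost 8, DFR, LDOX and UF3GT among them. Depth limits the genes under 1 CPM, where several seed, root and clock values lie.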
